A study of Rattus norvegicus with 9 samples.

Results

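The genes for the proteins of the cytosolic ribosome were followed across 3 diets in the proximal colon of rats. Members were the probe sets whose only gene symbol in the platform annotation began with Rpl or Rps and a digit, or was Rplp0, Rplp1, Rplp2 or Rpsa, with the Rps6k kinases left out. The rule used names and no measured value. It found 43 of the 4736 genes that the array names singly, in 63 of the 8740 probe sets that were not array controls. Of these, 60 probe sets for 42 genes reached a mean signal of 100 in any diet and entered the test, 41 for the large and 19 for the small subunit. Rplp1 had no probe set under the rule, and Rplp2 only one that carries several symbols.

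A cytosolic ribosome is built from a small subunit, which reads the mRNA, and a large subunit, which joins the amino acids. Each subunit is rRNA covered by many small basic proteins, named Rps for the small and Rpl for the large subunit, that are needed in equal numbers. Their mRNAs are among the most abundant of any cell, and many begin with a 5′ terminal oligopyrimidine (TOP) tract, a C followed by a run of C and T letters, through which mTOR signalling sets how well they are translated. Because these mRNAs are so bright on an array, their values depend more than most on how one array is scaled to another.

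All animals were male Sprague-Dawley rats on isocaloric AIN-93G diets that differed only in the protein, which was casein in the control group (CAS), a hydrolysate of whey protein in the second (WPH) and an isolate of soy protein in the last (SPI). They ate the diet of their dams for life. All, CAS included, received azoxymethane (AOM), a colon carcinogen, at 15 mg/kg in 2 injections from 90 days of age. Tissue free of tumor was taken 40 weeks later, so that no group lacked the carcinogen. RNA of 7 rats per diet was pooled, and 3 labelled targets made from that 1 pool were hybridized to 3 Affymetrix rat oligonucleotide arrays. The 9 arrays therefore measure the spread of labelling and hybridization, and the p-values below do not cover the spread between rats.

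The starts of 36 of the 43 genes were in the RefSeq table of the GRCr8 build, and 7 (Rpl19l4, Rpl27, Rpl30, Rps2-ps1, Rps29, Rps4x-ps9 and Rps9) were not. The following windows of 30 bases, 15 before and 15 from the annotated start of transcription, cover the place where a TOP tract would begin. They belong to members with large or small changes, and not all of them hold such a tract. Capitals mark the unbroken run of C and T from the start.
Rpl31: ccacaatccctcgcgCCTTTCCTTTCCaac
Rpl35: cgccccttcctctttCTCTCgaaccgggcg
Rpl19: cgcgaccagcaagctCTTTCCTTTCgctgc
Rpl14: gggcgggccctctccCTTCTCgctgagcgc
Rps15: cgctgacaccgcttcCTTTTCCCagcagcc
Rplp0: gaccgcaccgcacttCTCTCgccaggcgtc
Rpl24: gaatttagggaggagattctctaccctata
Rps6: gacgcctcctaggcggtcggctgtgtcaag
Rpl31 lies at chr9:49143096-49143125 on the plus strand, Rpl35 at chr3:43165907-43165936 on the minus strand, Rpl19 at chr10:83519049-83519078 on the plus strand and Rpl14 at chr8:129163605-129163634 on the plus strand. Rps15 lies at chr7:10068101-10068130, Rplp0 at chr12:46718376-46718405, Rpl24 at chr11:58128391-58128420 and Rps6 at chr5:106420526-106420555, all on the minus strand.

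The first 6 windows open with a C followed by at least 4 letters that are C or T, and those of Rpl24 and Rps6 hold no such run at the annotated start. Of the 36 member starts, 11 (30.6%) opened this way, against 2.63% of 33469 gene starts in the table. The letters CTTTCC stood within 25 bases of the start on the gene's own strand in 12 members (33.3%), against 2.19% of all starts, and on the opposite strand in 1 member, against 2.23%. In Rpl31 and Rpl19 the CTTTCC letters overlap the run at the start. An annotated start that is a few bases off hides a run, so the windows without one say nothing of the true first base. The 14 tested probe sets of the 11 genes with such a start had a median log2 difference of 0.49 with WPH and 0.26 with SPI against CAS, and the 38 probe sets of the other genes had 0.46 and 0.30, a description with no test.

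By the median signal of the ribosomal protein probe sets on each array, the diets followed 1 order. A value is the MAS 5.0 signal, a weighted difference between matched and mismatched probes that the authors scaled so that the trimmed mean of each array is 500. On this scale the median log2 signal of the 60 tested members stood at 12.58 ± 0.041 for the CAS arrays, 12.89 ± 0.030 for SPI and 13.08 ± 0.11 for WPH (SD, n = 3 arrays each). The lowest SPI array, at 12.87, lay above the highest CAS array, at 12.62, and the lowest WPH array, at 12.95, lay above the highest SPI array, at 12.93. The 63 members made up 6.38% ± 0.098 of the summed signal with CAS, 7.46% ± 0.059 with SPI and 7.97% ± 0.21 with WPH.

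**Figure D1:**
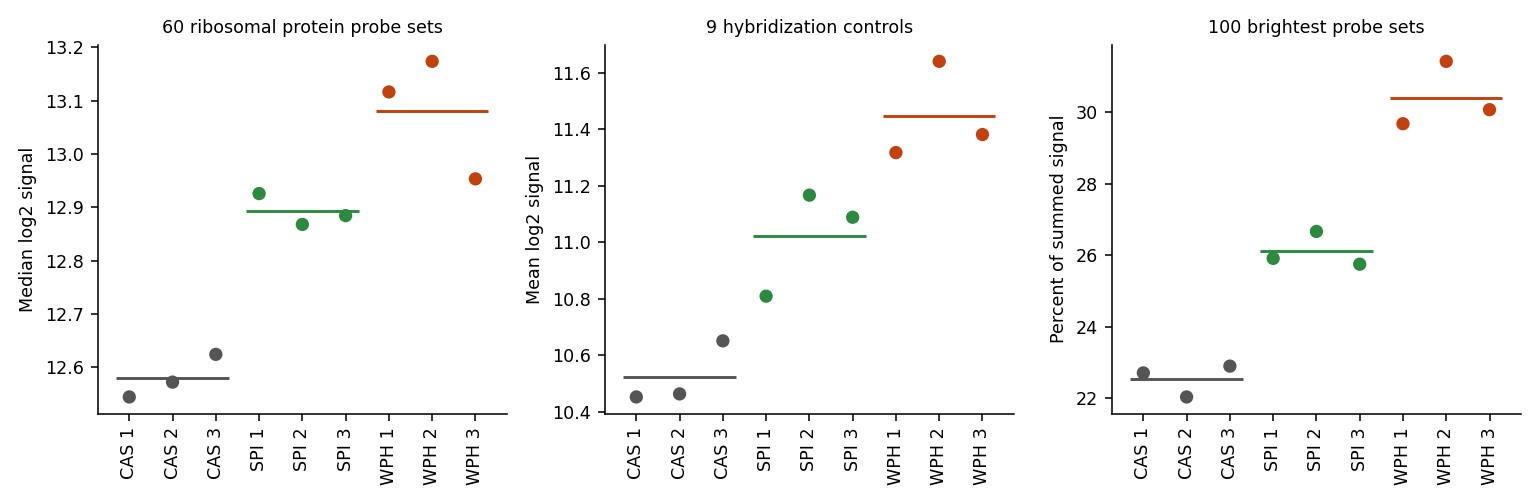
Values of each of the 9 arrays, coloured by diet, with the mean of the 3 arrays as a line. The left panel gives the median log2 signal of the 60 tested ribosomal protein probe sets, the middle panel the mean log2 signal of 9 hybridization control probe sets, and the right panel the percent of summed signal in the 100 brightest probe sets. All 3 measures are lowest on the CAS arrays and highest on the WPH arrays on the deposited scale, so the rise of the members on that scale goes with a rise of the controls, and scaling on those controls turns the direction.

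Against CAS, 44 of 60 tested members were higher and 1 was lower with WPH on the deposited scale at an adjusted p under 0.05, while scaling each array on its hybridization controls turned this to 0 higher and 41 lower. Over all 5606 tested probe sets, 20.9% were called higher and 17.9% lower on the deposited scale, and 1.61% and 72.1% on that of the controls. With SPI, 31 members were higher and none lower on the deposited scale, and 0 higher and 9 lower after scaling on the controls. Without SPI array 1 the count with SPI was 18. The shares over all probe sets were 12% higher and 10.2% lower with SPI, and 1.86% and 39.9% on the scale of the controls. None of the 60 tested members changed by 2-fold or more, although 5.53% of all probe sets were called higher and 8.58% lower by at least 2-fold with WPH, 2.39% and 3.35% with SPI, and 4.5% and 1.03% for SPI against WPH.

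On the deposited scale the median log2 difference of the 60 members was 0.47 with WPH, within a range from -0.80 to 0.85, beside 0.06 over all probe sets, and it was -0.45 after scaling on the controls. With SPI it was 0.30, within a range from -0.34 to 0.54, beside -0.01 over all probe sets, and it was -0.20 after scaling on the controls. Of the 60 members, 46 had all 3 WPH arrays above all 3 CAS arrays, against 28% of all probe sets, and 34 had all 3 SPI arrays above all CAS arrays, against 19.5%. The 2 comparisons share the CAS arrays. Of the members, 30 were called higher in both, against 9.53% of all probe sets, and 52 had mean signals in the order CAS, SPI, WPH, against 31.7%.

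**Figure D2:**
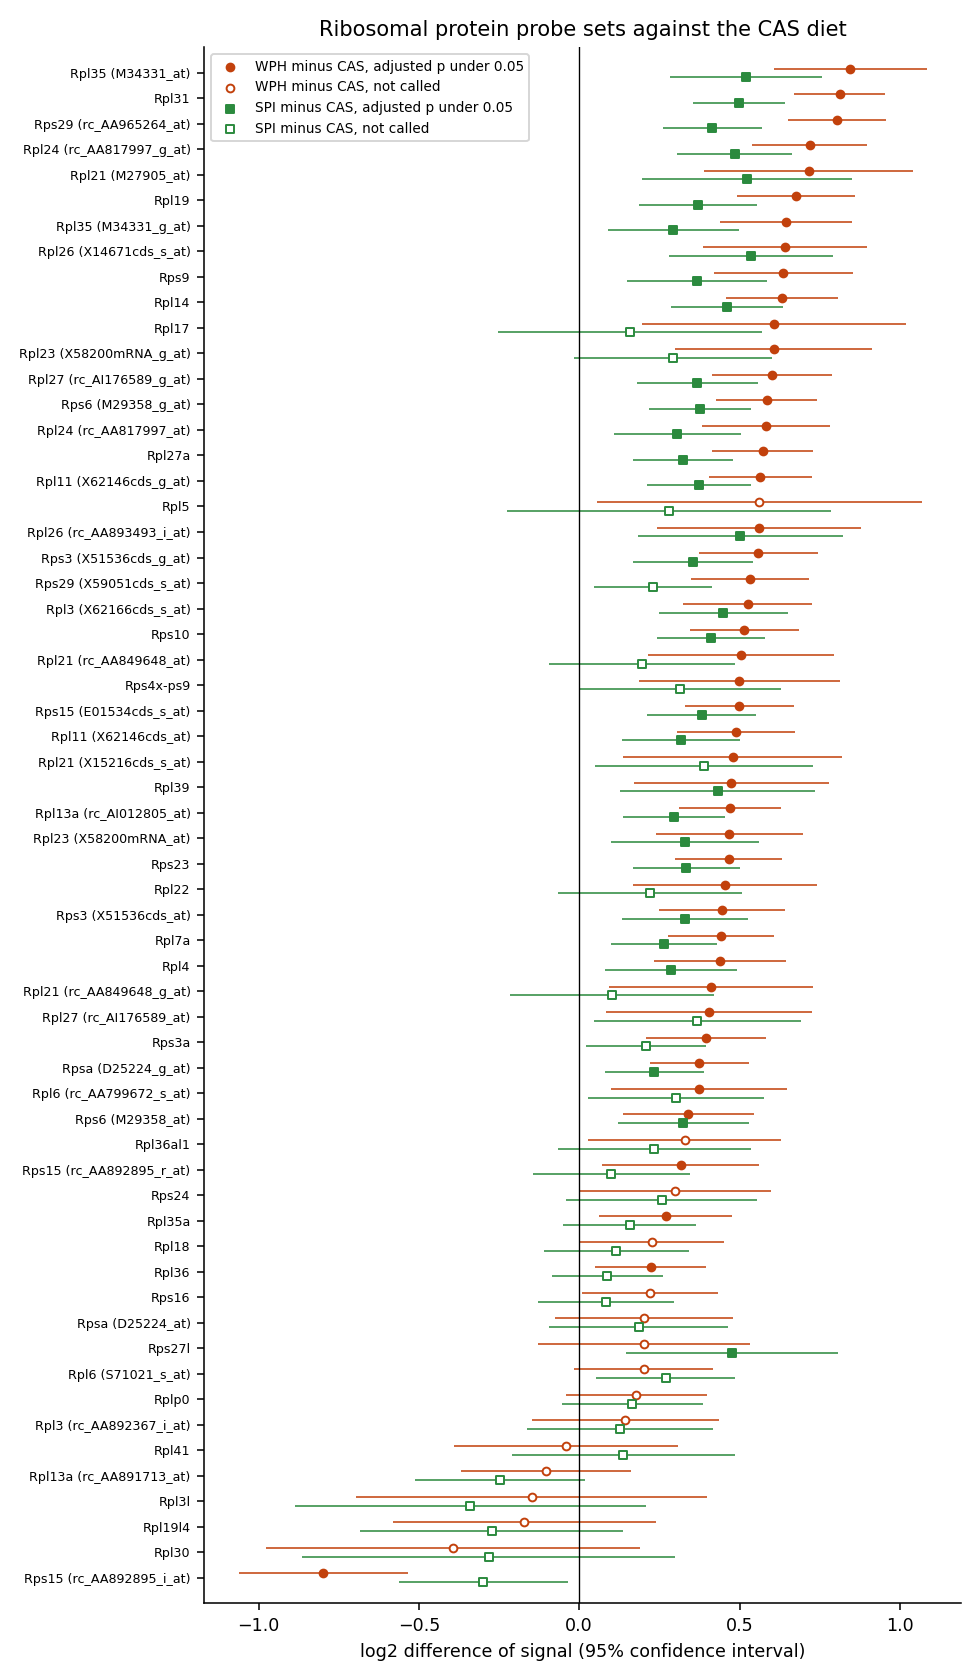
Log2 difference of signal against CAS on the deposited scale for each of the 60 tested ribosomal protein probe sets, ordered by the WPH difference, with lines for the 95% confidence interval and filled marks for an adjusted p under 0.05. With WPH (circles) 44 are called higher and 1, Rps15 rc_AA892895_i_at, lower, and with SPI (squares) 31 are called higher; scaled on the hybridization controls, no member is called higher with either diet.

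The direct comparison of SPI with WPH called 1 member higher and 6 lower on the deposited scale, against 10.1% and 9.83% of all probe sets, and 6 higher and 0 lower after scaling on the hybridization controls, against 21.8% and 0.624%. The 7 calls became 2 without SPI array 1, 3 without SPI array 3 or WPH array 2, 4 without WPH array 3 and 11 without CAS array 2. The median log2 difference of the members, SPI minus WPH, was -0.15, and that of all probe sets -0.08. In 26 members all SPI arrays lay below all WPH arrays, against 20.9% of all probe sets. The share of members called lower is near that of all probe sets in this comparison, and the share called higher is below it. The 6 that were lower with SPI were Rpl31, Rpl19, Rpl27a, Rpl35 (M34331_g_at) and both probe sets of Rps29. Under quantile normalization and with the round of hybridization times, described below, as a block none of the 6 was called, against 8.54% and 3.71% of all probe sets, and the 1 call left was the member that was higher on the deposited scale, Rps15 rc_AA892895_i_at, against 6.28% of all probe sets called higher with the block.

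The subunits gave similar counts and medians, and no test between them was run. On the deposited scale 30 of the 41 large subunit probe sets rose and 0 fell with WPH, and 20 rose and 0 fell with SPI. Of the 19 for the small subunit, 14 rose and 1 fell with WPH, and 11 rose and 0 fell with SPI. The 19 include Rps4x-ps9, annotated as a pseudogene, which rose with WPH by log2 0.50 (adjusted p = 0.0161) and was not called with SPI. Over all probe sets 20.9% rose and 17.9% fell with WPH, and 12% and 10.2% with SPI. The median log2 differences with WPH were 0.47 and 0.45, and with SPI 0.29 and 0.32, for the large and small subunit. After scaling on the hybridization controls no probe set of either subunit was called higher against CAS.

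Values of single members here and below are on the deposited scale unless another is named. The members still called higher under other scalings, that on the hybridization controls left out, are listed further below. Among large subunit proteins, the largest difference was that of Rpl35, a protein near the exit of the peptide tunnel. Its probe set M34331_at read 5080, 4274 and 4981 with CAS, 6843, 7292 and 6389 with SPI, and 8798, 9590 and 7437 with WPH. No array of one diet overlapped those of another. The log2 difference from CAS on the deposited scale was 0.85 ± 0.11 (SE, adjusted p = 8.7e-05) with WPH and 0.52 ± 0.11 (adjusted p = 0.00526) with SPI. The second probe set of the gene, M34331_g_at, gave 0.64 (adjusted p = 0.000221) and 0.29 (adjusted p = 0.0441).

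Rpl31, which also lies by the tunnel exit, was the most regular member. It read 10763, 11064 and 10858 with CAS, 15789, 14781 and 15645 with SPI and 18347, 19626 and 19421 with WPH. The 3 diets stood apart without overlap, and the gaps between them were several times the spread within a diet. The log2 differences were 0.81 ± 0.065 (SE, adjusted p = 2.47e-06) with WPH against CAS, 0.50 (adjusted p = 0.000277) with SPI against CAS and -0.31 (adjusted p = 0.00607) for SPI minus WPH. Its window above has the longest run of C and T among the 8 shown.

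Rpl24, a protein of the face that meets the small subunit, had both probe sets higher with each diet. The brighter, rc_AA817997_g_at, read 9482, 11185 and 9798 with CAS, 13749, 14322 and 14469 with SPI and 16892, 17575 and 15609 with WPH. Its log2 difference was 0.72 (adjusted p = 3.42e-05) with WPH and 0.49 (adjusted p = 0.00141) with SPI. The dimmer, rc_AA817997_at, gave 0.58 and 0.31, so the probe sets of this gene went the same way.

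Rpl19, a large subunit protein of the bridge between the subunits, read 11690, 10910 and 10477 with CAS, 13381, 15636 and 13755 with SPI and 16539, 18648 and 17647 with WPH. The diets did not overlap. Its log2 difference was 0.68 (adjusted p = 6.8e-05) with WPH, 0.37 (adjusted p = 0.00864) with SPI, and -0.31 (adjusted p = 0.0246) for SPI minus WPH. Rpl14 read 2429, 2630 and 2352 with CAS, 3384, 3367 and 3445 with SPI and 4019, 3798 and 3663 with WPH. Its differences of 0.63 (adjusted p = 7.65e-05) and 0.46 (adjusted p = 0.00164) kept the diets apart at a signal far below that of Rpl19.

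Rpl21 had 4 probe sets, all higher with WPH by log2 0.41 to 0.72. The brightest, M27905_at, read 5843, 8166 and 6394 with CAS, 10976, 7860 and 10501 with SPI and 12191, 10050 and 11019 with WPH. One SPI array lay within the CAS range, and the WPH arrays did not. Only this probe set was called with SPI, at 0.52 (adjusted p = 0.0266), while the others gave 0.10, 0.20 and 0.39 (adjusted p = 0.682, 0.341 and 0.101). After cyclic loess M27905_at gave 0.40 (adjusted p = 0.0843) and X15216cds_s_at 0.27 (adjusted p = 0.217) with WPH, and neither was called.

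Rpl26, also by the tunnel exit and a known translational regulator of p53, had both probe sets called with both diets. X14671cds_s_at gave log2 0.64 (adjusted p = 0.00105) with WPH and 0.54 (adjusted p = 0.00691) with SPI, and rc_AA893493_i_at gave 0.56 and 0.50. The first read 6110, 6811 and 6506 with CAS, 10129, 8148 and 9995 with SPI and 11579, 10193 and 8700 with WPH. SPI and WPH arrays overlapped, and both stood above CAS. After cyclic loess neither probe set of Rpl26 was called with either diet. With WPH they then gave 0.33 (adjusted p = 0.0567) and 0.19 (adjusted p = 0.319). Rpl39, one of the smallest ribosomal proteins, gave 0.47 (adjusted p = 0.0175) with WPH and 0.43 (adjusted p = 0.0448) with SPI on the deposited scale. After cyclic loess Rpl39 gave 0.19 (adjusted p = 0.345) and 0.26 (adjusted p = 0.247), and was not called with either diet.

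Rpl3, which helps form the centre where peptide bonds are made, had probe sets that differed in call. X62166cds_s_at read 6552, 6626 and 6792 with CAS, 9575, 8471 and 9262 with SPI and 9162, 10914 and 8795 with WPH. It was higher by log2 0.53 (adjusted p = 0.00078) with WPH and 0.45 (adjusted p = 0.00458) with SPI. After cyclic loess it gave 0.22 (adjusted p = 0.0584) with WPH and 0.27 (adjusted p = 0.0407) with SPI. The other, rc_AA892367_i_at, read 12831, 9166 and 12735 with CAS and 10908, 13814 and 13414 with WPH. Here 1 CAS array lay low, and the difference of 0.14 (95% confidence interval -0.15 to 0.43, adjusted p = 0.423) was not called.

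Several other genes split in the same manner. For Rpl13a, known for silencing of inflammatory transcripts outside the ribosome, rc_AI012805_at rose by log2 0.47 (adjusted p = 0.000331) with WPH, while rc_AA891713_at gave -0.10 (adjusted p = 0.537). The first read 8884, 8775 and 9210 with CAS and 12011, 13437 and 11845 with WPH, and the second 3167, 3969 and 3186 with CAS and 2999.5, 3466 and 3107 with WPH. The WPH arrays of the second fell inside the CAS range or below it. For Rpl6, rc_AA799672_s_at rose with WPH by 0.37 (adjusted p = 0.0342), and S71021_s_at gave 0.20 (adjusted p = 0.133). For Rpl27 and Rpl23 both probe sets rose with WPH, and 1 of the 2 was called with SPI.

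Rps29, a zinc-binding protein of the small subunit head, was the brightest member. Its probe set rc_AA965264_at read 20981, 21514 and 20660 with CAS, 28003, 29667 and 26612 with SPI and 34694, 38950 and 36719 with WPH, with no overlap. On the deposited scale the log2 differences were 0.80 (adjusted p = 4.16e-06) with WPH, 0.42 (adjusted p = 0.00143) with SPI and -0.39 (adjusted p = 0.00258) for SPI minus WPH, but quantile normalization gave -0.01 (adjusted p = 0.915) with WPH. The other Rps29 probe set, X59051cds_s_at, gave 0.53 (adjusted p = 0.000403) with WPH on the deposited scale and -0.28 (adjusted p = 0.00469) after quantile normalization. Rpl27a, at 15366 ± 553 with CAS and 22844 ± 1067 with WPH (SD, n = 3), likewise gave 0.57 on the deposited scale and -0.19 after quantile normalization.

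Rps6, the small subunit protein that S6 kinases phosphorylate, had both probe sets called higher with both diets on the deposited scale. M29358_g_at read 11409, 13167 and 11955 with CAS, 15956, 15751 and 15653 with SPI and 18402, 17561 and 18747 with WPH, in steps without overlap. It gave log2 0.58 (adjusted p = 6.49e-05) with WPH and 0.38 (adjusted p = 0.00308) with SPI, and M29358_at gave 0.34 (adjusted p = 0.0128) and 0.32 (adjusted p = 0.0279). After cyclic loess neither probe set was called with either diet, and with WPH they gave 0.18 (adjusted p = 0.111) and 0.09 (adjusted p = 0.453). Quantile normalization gave 0.06 (adjusted p = 0.713) and 0.29 (adjusted p = 0.0156) with WPH. Scaling on the hybridization controls gave -0.34 (adjusted p = 0.0454) and -0.58 (adjusted p = 0.00293). Rps9, a small subunit protein near the entry of the mRNA, read 7840, 6519 and 8208 with CAS, 9487, 9750 and 9736 with SPI and 10525, 12616 and 11859 with WPH. Its differences were 0.64 (adjusted p = 0.000357) and 0.37 (adjusted p = 0.0207).

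Rpsa, a small subunit protein also known as the laminin receptor, had 1 probe set called and 1 not. D25224_g_at read 7868, 7571 and 7938 with CAS and 9665, 10581 and 10067 with WPH, higher by log2 0.37 (adjusted p = 0.0013). D25224_at read 9740, 9183 and 10381 with CAS and 8960, 12775 and 12374 with WPH. One WPH array lay below every CAS array, and the difference of 0.20 was not called (adjusted p = 0.236).

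Rplp0, the base of the stalk that recruits elongation factors and a gene often used as a reference in RT-PCR, was not called. It read 11578, 9055 and 11411 with CAS, 11816, 12765 and 11185 with SPI and 11511, 12122 and 12399 with WPH. The ranges of all 3 diets overlapped. The log2 difference was 0.18 (95% confidence interval -0.04 to 0.40, adjusted p = 0.189) with WPH and 0.17 (adjusted p = 0.286) with SPI. The upper bound with WPH lies below the median of 0.47 over all tested members.

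Rps15, a protein of the small subunit head, had 3 probe sets that disagreed. E01534cds_s_at read 6923, 6330 and 7236 with CAS, 8963, 8681 and 9023 with SPI and 9517, 10232 and 9194 with WPH, higher by log2 0.50 (adjusted p = 0.000344) with WPH and 0.38 (adjusted p = 0.00438) with SPI. The probe set rc_AA892895_r_at gave 0.32 (adjusted p = 0.0422) and 0.10 (adjusted p = 0.587). In contrast, rc_AA892895_i_at read 759, 640 and 633 with CAS, 574, 566 and 509 with SPI and 395, 412 and 359 with WPH. These ranges did not overlap either, in the reverse order, and it fell by 0.80 on the log2 scale with WPH (adjusted p = 0.000275), the only member called lower. It was higher with SPI than with WPH by 0.50 (adjusted p = 0.013). Affymetrix adds _i to a probe set with fewer probes than usual and _r to one made under relaxed rules, and both here were designed on 1 expressed sequence tag.

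**Figure D3:**
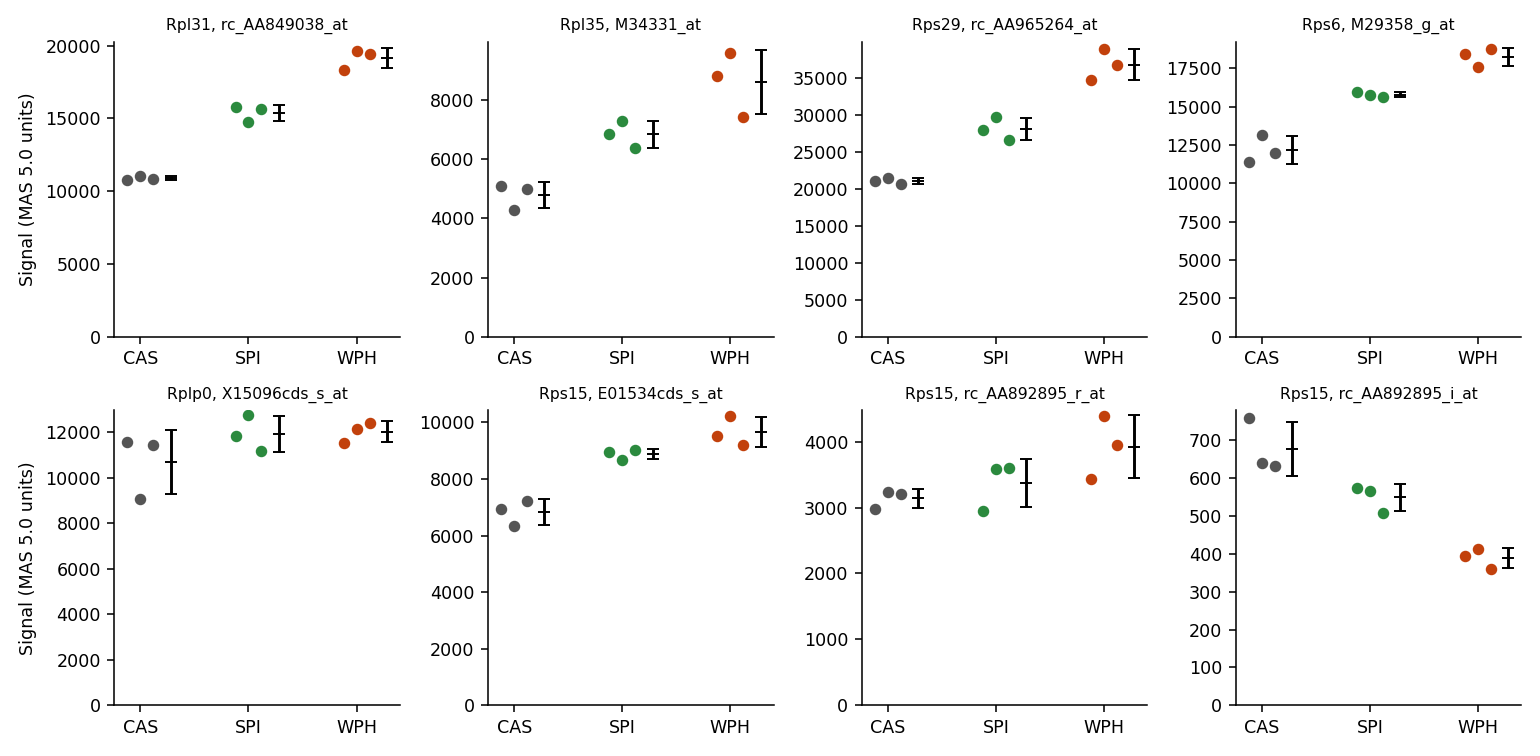
MAS 5.0 signal on the deposited scale, by diet, of 8 ribosomal protein probe sets, with 1 point per array and the mean ± SD of 3 arrays beside the points. Rpl31, Rpl35, Rps29 and Rps6 rise from CAS to SPI to WPH without overlap, Rplp0 overlaps in all diets, and the probe set rc_AA892895_i_at of Rps15 falls while the other 2 of the gene do not; scaling on the hybridization controls turns the median of the members to lower with both diets.

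Of the 9 members with a mean signal under 1000, 3 were higher and 1 lower with WPH on the deposited scale, and none was called with SPI. Among the 4310 other probe sets under that signal, 16.1% were higher and 16.5% lower with WPH, and 7.98% and 8.7% with SPI. Rps27l, a p53-responsive paralog of Rps27, was the only member called with SPI and not with WPH. It read 1972, 2671 and 2333 with CAS, 3563, 2688 and 3461 with SPI and 3076, 2666 and 2286 with WPH, and gave log2 0.48 (adjusted p = 0.0423) with SPI and 0.20 (adjusted p = 0.318) with WPH. The direct difference, SPI minus WPH, was 0.27 (adjusted p = 0.242), so the diets were not shown to differ. Below the filter lay both probe sets of the pseudogene Rps2-ps1, with means of at most 46.6 in any diet, and rc_AA891037_g_at of Rpl3l, a muscle paralog of Rpl3, with 64.4 at most.

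Ribosomal protein genes have many processed pseudogenes with nearly the same sequence, so a probe set can read several of them. In the annotation, 40 more probe sets name a ribosomal protein together with other symbols, mostly such copies, and 38 of these were tested. On the deposited scale 32 were higher and 0 lower with WPH and 24 higher and 0 lower with SPI, with medians of 0.49 and 0.33, against the 20.9% and 17.9% of all probe sets with WPH and the 12% and 10.2% with SPI. The probe set that includes Rplp2, a stalk protein, gave 0.32 (adjusted p = 0.0189) with WPH and 0.21 (adjusted p = 0.148) with SPI. These probe sets add genes that the single-symbol rule leaves out, and which copy gave the signal was not tested.

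The scaling of bright transcripts was examined next. The trimmed mean that sets the scale leaves out the brightest probe sets of an array by its construction. With the 98th percentile as a guide, the members above it numbered 24 to 25 with CAS, 29 to 31 with SPI and 31 to 33 with WPH, out of 175 probe sets in all. The trimmed mean was at most 500.6 on every array, whereas the mean of all signals came to 711 ± 6.2 for CAS, 757 ± 6.7 for SPI and 810 ± 15.7 for WPH (SD, n = 3). The 100 brightest probe sets held 22.5% of the summed signal with CAS, 26.1% with SPI and 30.4% with WPH.

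Bright probe sets that do not encode ribosomal proteins also had medians above 0 on the deposited scale, although a part of them fell. Between mean signals of 8000 and 16000, the median log2 difference with WPH was 0.54 for 24 members and 0.38 for 62 others. Of these others 58.1% were called higher and 16.1% lower. Between 4000 and 8000 it was 0.44 for 17 members and 0.16 for 146 others, of which 40.4% were called higher and 32.2% lower. Above 16000 it was 0.59 for 4 members and 0.90 for 36 others, all of which were called higher. With SPI the corresponding medians were 0.34 and 0.22, 0.32 and 0.11, and 0.31 and 0.47. The members thus stood above other probe sets of the same brightness in the 2 lower ranges and below them in the brightest, a description with no test.

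**Figure D4:**
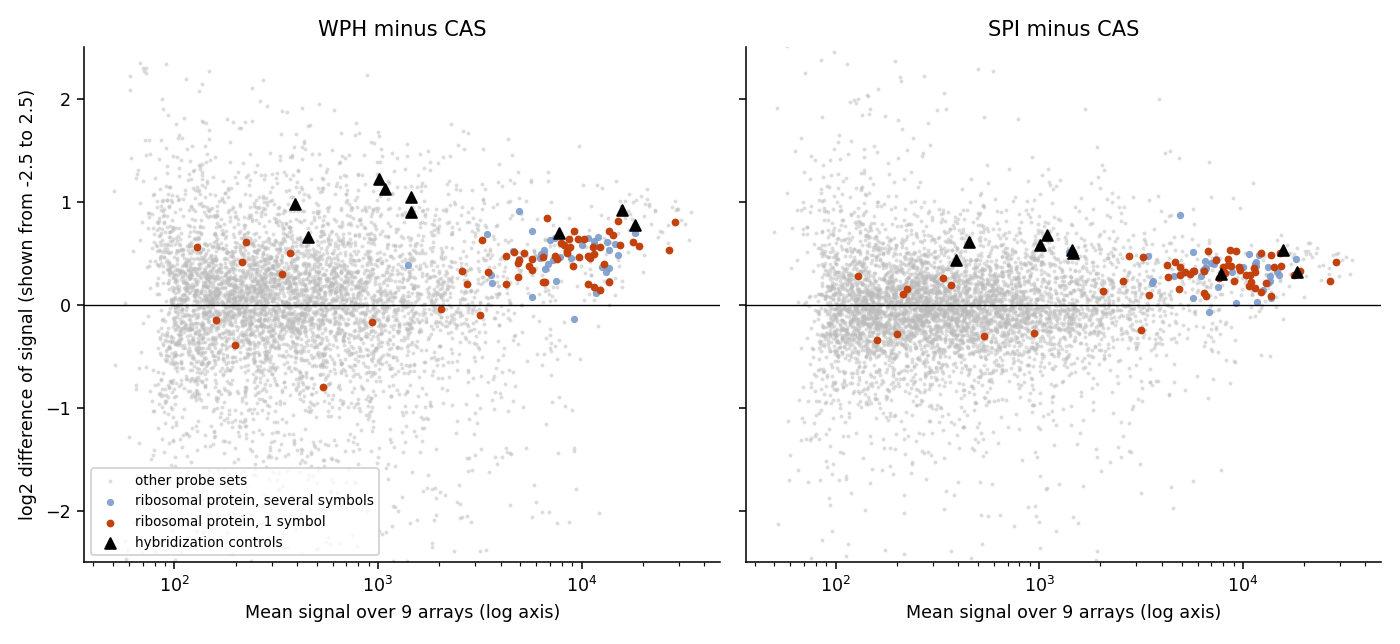
Log2 difference of signal against CAS on the deposited scale for each probe set, against its mean signal over the 9 arrays on a log axis, for WPH on the left and SPI on the right. The ribosomal protein probe sets lie above 0 at the bright end. Other probe sets with a mean signal of 4000 or more also have medians above 0, but part of those under 16000 were called lower. The 9 hybridization controls (triangles) all lie above 0, by 0.65 to 1.22 with WPH and 0.30 to 0.68 with SPI. Scaled on those controls the members' medians are -0.45 and -0.20.

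Bacterial and phage RNAs (BioB, BioC, BioD and Cre) that serve as external controls and are meant to be added to each hybridization in the same amount gave 9 control probe sets. On the deposited scale their mean log2 signal came to 10.52 ± 0.11 for CAS, 11.02 ± 0.19 for SPI and 11.45 ± 0.17 for WPH (SD, n = 3), with no overlap between diets. Each of the 9 was higher with WPH than with CAS, by log2 0.65 to 1.22, and with SPI by 0.30 to 0.68. Scaling on them shifts the median of all probe sets to -0.86 with WPH and -0.51 with SPI, and the members to -0.45 and -0.20. Relative to the median of all probe sets the members stay 0.41 and 0.31 higher under this scaling and on the deposited scale, since a single factor per array moves both. Whether these RNAs were added in equal amounts to all targets was not tested.

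Normalizations that depend on brightness left less of the difference. Quantile normalization, which gives every array the same distribution, called 31 members higher and 3 lower with WPH, against 20.9% and 17.3% of all probe sets, with a median of 0.28. With SPI it called 10 higher and 1 lower, against 11.1% and 9.53%, with a median of 0.19. Cyclic loess, which removes a curve over brightness between arrays, called 17 higher and 1 lower with WPH, against 18.1% and 19.1% of all probe sets, and 6 higher and 0 lower with SPI, against 10.2% and 10.3%. The medians were then 0.18 and 0.14, beside 0.02 and -0.01 over all probe sets. With SPI the share of members called higher under loess is thus near that of all probe sets.

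**Figure D5:**
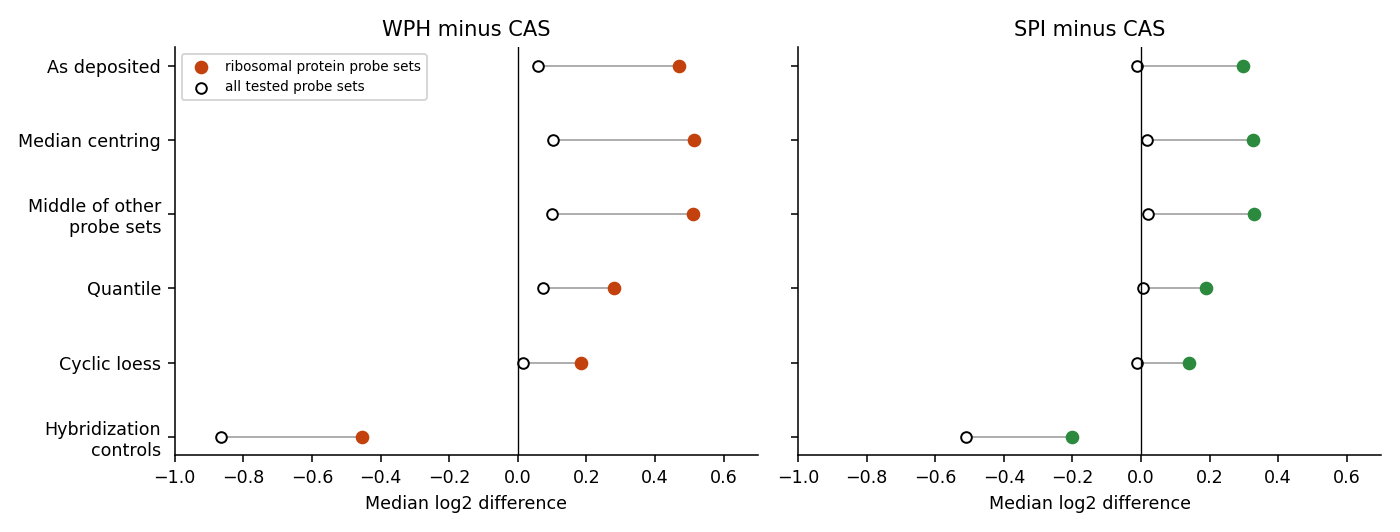
Median log2 difference against CAS of the 60 tested ribosomal protein probe sets (filled) and of all 5606 tested probe sets (open) under 6 scalings, for WPH on the left and SPI on the right. The members lie to the right of all probe sets under every scaling shown, by 0.41 with WPH on the deposited scale and 0.17 after cyclic loess, and both lie below 0 when arrays are scaled on the hybridization controls.

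Members called higher with WPH on the deposited scale, after median centring, after scaling on the middle of the other probe sets, after quantile normalization and after cyclic loess numbered 16, for 13 genes. They were Rpl11 (X62146cds_g_at), Rpl14, Rpl17, Rpl19, Rpl21 (rc_AA849648_at and rc_AA849648_g_at), Rpl24 (both), Rpl27 (rc_AI176589_g_at), Rpl31, Rpl35 (both), Rps3 (X51536cds_g_at), Rps9, Rps10 and Rps15 (E01534cds_s_at), a list fixed by the calls after they were seen. Over all probe sets 17.8% were called higher under all 5. With SPI there were 5 (Rpl3, Rpl14, Rpl31, Rpl35 and Rps10), against 9.65% of all probe sets. The share of the members was thus not above that of all probe sets with SPI. Rps15 rc_AA892895_i_at was called lower with WPH under all 5. These 5 leave out scaling on the hybridization controls, under which 0 of 60 members were called higher with either diet. Median centring and scaling on the middle gave the same member counts as the deposited scale, 44 higher with WPH and 31 with SPI. Only quantile normalization and cyclic loess therefore shortened these lists. By rank within an array, which no single factor alters, 46 of 60 members stood higher with WPH than with CAS and 46 with SPI, against 56.4% and 50.9% of all probe sets.

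The hybridization times in the instrument files fall into rounds that partly follow the diets, and the files do not state which step the time marks. By these times the first round held all CAS arrays and WPH array 2, the second SPI arrays 1 and 2 with WPH arrays 1 and 3, and the last SPI array 3. Within the first round, 33 members were higher and 1 lower with WPH than with CAS, against 13.3% and 15.4% of all probe sets, with a median of 0.53. No round held both CAS and SPI. With the round as a block, 31 members were higher and 1 lower with WPH and 2 higher and 0 lower with SPI, against 13% and 1.78% of all probe sets called higher and 13.3% and 2.71% called lower. The WPH median was then again 0.53, since WPH array 2 alone shared a round with CAS, so the block is no separate check of WPH. The SPI median was 0.41. Within the second round none of the members was called between SPI and WPH by limma, against 3.94% of all probe sets called higher and 1.68% lower. At an unadjusted p under 0.05 there were 4 members, and the share of all probe sets at that threshold was not counted.

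The genes that work with the ribosome gave a mixed picture. Of 5 genes tested for elongation, 4 were higher with WPH and 2 with SPI on the deposited scale, against 20.9% and 12% of all probe sets. After cyclic loess 3 and 0 were higher, against 18.1% and 10.2%. The 4 are all the elongation factors tested, and the fifth gene is Eef2k, the kinase that inhibits Eef2, which gave 0.34 (adjusted p = 0.0522) with WPH. Eef1a1, which brings aminoacyl-tRNA to the ribosome, rose by log2 0.72 (adjusted p = 0.00814) with WPH and 0.58 (adjusted p = 0.0429) with SPI. Eef1g, a structural subunit of its exchange complex, rose by 0.51 and 0.38 (adjusted p = 0.000569 and 0.00765), Eef2, the translocase, by 0.42 (adjusted p = 0.0197) with WPH, and Eef1a2, the neuron and muscle form, by 1.44 (adjusted p = 0.00224) with WPH.

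Of 20 initiation factors and their kinases, 4 were higher and 2 lower with WPH, and 0 higher and 2 lower with SPI. The share higher with WPH is near the 20.9% of all probe sets, the share lower with SPI is near the 10.2%, and the others are below theirs (17.9% lower with WPH and 12% higher with SPI). Eif2ak3 (PERK), a kinase that represses initiation under endoplasmic reticulum stress, fell by 1.61 on the log2 scale (adjusted p = 0.000173) with WPH and by 0.69 (adjusted p = 0.0491) with SPI, and Eif4h, a helicase cofactor, fell by 0.42 (adjusted p = 0.00446) and 0.31 (adjusted p = 0.0411). Eif2b1, part of the exchange factor for eIF2, rose by 0.60 (adjusted p = 0.00396) and Eif3b by 0.42 (adjusted p = 0.0128) with WPH. Of 10 genes of the mTOR and S6 kinase pathway, 1 was called, Rheb, the GTPase that switches on mTORC1, at 0.79 (adjusted p = 0.000117) and 0.42 (adjusted p = 0.0151). Mtor itself gave 0.22 (adjusted p = 0.37) and Rps6kb1 0.16 (adjusted p = 0.664) with WPH.

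Mitochondrial ribosomal proteins, which belong to another ribosome, did not move as a group. Of 14 tested, 1 was higher and 1 lower with each diet, with medians of 0.10 and 0.04. Mrpl23 rose by log2 0.74 (adjusted p = 0.000254) with WPH and 0.54 (adjusted p = 0.00483) with SPI, and Mrps6 fell by 0.94 (adjusted p = 0.000178) and by 1.19 (adjusted p = 8.64e-05). Of 11 genes of ribosome assembly, 2 were higher with WPH and 1 with SPI. Ncl (nucleolin) rose by 0.51 (adjusted p = 0.00137) and 0.38 (adjusted p = 0.015), and Mybbp1a rose by 0.75 (adjusted p = 0.00668) with WPH. Rack1, a scaffold protein of the small subunit, gave 0.35 (adjusted p = 0.0179) with WPH and 0.24 with SPI. All these counts are on the deposited scale, and none of the shares called for the mTOR, mitochondrial and assembly lists is above that of all probe sets with WPH.

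Markers of several cell types in the tissue also differed between the diets. Beside the counts below, 20.9% of all probe sets were called higher and 17.9% lower with WPH on the deposited scale, and 12% and 10.2% with SPI. The samples held both mucosa and muscle, and in bulk tissue fewer cells of a type and less RNA per cell cannot be told apart. Of 16 epithelial markers 16 were lower with WPH, with a median log2 difference of -2.19, and 12 with SPI, with a median of -0.85. Their summed signal fell from at least 77699 on the CAS arrays to at most 42733 on the SPI and 18317 on the WPH arrays. Of 10 smooth muscle markers 9 were higher with WPH and 9 with SPI, of 12 neuron and glia markers 11 and 8, and of 9 matrix markers 8 and 8 on the deposited scale, where 1, Sparc, was lower with SPI (it fell by 0.43 on the log2 scale, adjusted p = 0.0443). After cyclic loess the smooth muscle counts were 9 and 3, the neuron and glia counts 11 and 8, and the matrix counts 7 and 8 higher with 1 lower with each diet. Of all probe sets 18.1% were then called higher with WPH and 10.2% with SPI. The summed signal of the smooth muscle markers ranged from 119078 to 121408 with CAS, 170009 to 173456 with SPI and 227595 to 258267 with WPH. Of 8 leukocyte markers 5 were higher and 1, Cd52, lower with WPH, and 4 and 1 with SPI. Leukocyte markers did not follow the order of the members, with medians of 0.38 with WPH and 0.81 with SPI. Among the 16 epithelial markers, Krt8 had the highest mean signal with WPH, at 3889, against 10543 with CAS. Aqp8 had the lowest, at 60 with WPH, against 243 with CAS, and with WPH it lay below the mean signal set for the filter. Whether each epithelial marker was present in every diet was not tested. The part of these shifts in the ribosomal protein result was not tested.

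An RNA quality measure moved too, while another overlapped between the diets. The 3′ to 5′ signal ratio of β-actin came to 1.86 ± 0.026 for CAS, 2.21 ± 0.13 for SPI and 2.98 ± 0.49 for WPH (SD, n = 3), in the order of the members. That of GAPDH was 1.56 ± 0.20, 1.56 ± 0.085 and 1.63 ± 0.069, with overlap. Their part in the result was not tested.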

How the data were processed

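The authors hybridized biotin-labelled cRNA to 9 rat oligonucleotide arrays and deposited MAS 5.0 signal values scaled to a trimmed mean of 500. Signals under 0.1 were set to 0.1, log2 was taken, and 5606 of 8740 probe sets with a mean of at least 100 in at least 1 diet were fitted with limma 3.58.1 (R 4.3.3), with a variance trend over all 9 arrays, no block, and Benjamini-Hochberg adjustment per comparison, called at 0.05. The fit was tested on simulated data. Members and lists were chosen with earlier results of these data known. Named were the called members with the largest changes (up to 10 per direction and comparison), genes whose probe sets differ in call or sign, Rplp0, Rpsa, Rps6 and Rpl3, members under the filter, and up to 4 genes per related list by adjusted p. Other names (Rpl17, Rps3, Rps10, Rpl11 and Rps4x-ps9, Krt8, Aqp8, Cd52, Sparc, Eef2k, Mtor and Rps6kb1) were chosen after their values were seen. Symbols came from the platform annotation, in which 7018 probe sets had 1 symbol, and start sequences from RefSeq by gene ID. Each list used the brightest probe set per gene. Array number limits precision, since a single pool per diet leaves no biological replicate. Other scalings, floors, filters, tests, blocks and left-out arrays were tried. Figures were drawn with Python 3.11.15 and matplotlib 3.10.9. Rounds of hybridization times came from gaps of over 60 minutes between the time stamps in the instrument files, which do not state what step a stamp marks.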

Additional observations from a re-analysis of the deposited data

How the results depend on the processing

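The direction of the members depended on the scaling, and the cause was not tested. Scaling on the hybridization controls reversed the counts to 41 lower with WPH, 9 lower with SPI and 6 higher for SPI against WPH, and the medians to -0.45, -0.20 and 0.28. Quantile normalization gave medians of 0.28, 0.19 and -0.072, 11 calls with SPI, and 1 call for SPI against WPH, Rps15 rc_AA892895_i_at, which was also higher on the deposited scale, while the 6 lower calls were lost. It also reversed Rps29 rc_AA965264_at (-0.011), Rps29 X59051cds_s_at (-0.28), Rpl27a (-0.19) and Rpl23 X58200mRNA_g_at (-0.074) with WPH, Rpl27a (-0.040) with SPI, and Rps29 rc_AA965264_at (0.061), Rpl27a (0.15) and Rps29 X59051cds_s_at (0.068) for SPI minus WPH. Cyclic loess gave 18, 6 and 2 calls and medians of 0.18, 0.14 and -0.039. A 2-fold minimum left 0, 0 and 0 calls. With SPI the calls numbered 15 without the variance trend, 17 by the methods' t-test after Benjamini-Hochberg, 20 with the replicate block and 2 with the round of hybridization times as a block, where the median was 0.41. All of these were higher, against 9.95%, 7.06%, 9.58% and 1.78% of all probe sets called higher. For SPI against WPH the calls numbered 3 without the trend, against 9.44% of all probe sets higher and 8.31% lower. They numbered 4 with the replicate block, against 8.58% and 7.3%. The methods' t-test at an unadjusted p under 0.05 gave 1 higher and 19 lower, against 12.2% and 15.3%. With the round as a block 1 was higher (the same probe set of Rps15) and none lower, against 6.28% and 3.71%. Within the second round there were 0, against 3.94% and 1.68%. With 1 probe set per gene, 29 of 42 genes were higher and 0 lower with WPH, against 21.6% and 18% of all probe sets kept in that setting.

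Leaving out 1 array at a time gave 36 to 45 calls with WPH (medians 0.43 to 0.51), 18 to 30 with SPI (medians 0.25 to 0.33, the lowest count without SPI array 1) and 2 to 11 for SPI against WPH (medians -0.19 to -0.12, the lowest count without SPI array 1, the highest without CAS array 2). The SPI against WPH count was also 3 without SPI array 3, 3 without WPH array 2 and 4 without WPH array 3. Replicate numbers did not pair the arrays, since deviations of same-numbered arrays correlated from -0.27 to 0.24. Floors, pseudocounts, filters, median centring and scaling on the middle of the other probe sets kept every count and median of the members within 1.5 times of the reported one. Dropping _i_at and _r_at probe sets, an alternative chosen after seeing the data, left 42, 30 and 6 calls. The 9 arrays from 3 RNA pools limit precision, and no depth applies to arrays.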
